A study of Solanum chacoense with 24 samples.

Results

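The distal part of chromosome 2 was described in leaves of the wild potato Solanum chacoense, a diploid species, as the set of gene models whose midpoint lies at 25 Mb or beyond on that chromosome. The rule used position only and no expression value. It took 1768 of the 37740 gene models in the count table, 4.68% of all models and 5.94% of the 29786 models placed on a chromosome. The models ran from 25007073 to 42366059, a span of 17.4 Mb, with 102 models per Mb. Below 25 Mb the same chromosome carried 1129 models, or 45.2 per Mb. Just inside the boundary, the model at 25007073 to 25008647 reached at most 0.0140 CPM in a line, while that at 25026147 to 25034961 ran from 41.0 CPM in EE501F2_089 to 102 CPM in M6. Just outside, the model at 24984451 to 24985701 reached 6.56 CPM in EE501F2_089, its highest line, against 0.680 CPM in M6, its lowest. CPM is the read count scaled to the size of the library with TMM factors.

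RNA was sequenced from leaflets of 8 lines, with 3 plants each. The resistant F2 lines were EE501F2_089, EE501F2_516 and EE501F2_641, and the susceptible F2 lines were EE501F2_093, EE501F2_099 and EE501F2_500. Their parents were 80-1, which resists the Colorado potato beetle, and the inbred M6, which does not. Resistance is as the labels give it, and no transgene or treatment is named in the labels. Each line's plants were propagated in vitro from a single individual, so a p-value resting on plants speaks of these lines only. Plants were grown at 20 °C under 16 h of light and 70% relative humidity, and leaflets were taken 16 weeks after transplanting.

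In an F2 plant, each stretch of chromosome holds both copies from 1 parent or a copy from each, and genes that lie near each other tend to be inherited together. Expression differences between parents that arise from the gene copies themselves therefore follow the inherited stretch. Chromosome 2 of potato carries the nucleolar organiser on its short arm and a long arm rich in genes. Some S. chacoense leaves make leptines, acetylated glycoalkaloids known to deter the beetle. The gene models of the table carry identifiers without gene names, so none can be placed in that pathway, and the labelled tissue could not be checked against leaf markers.

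Total counts per library ran from 23610756 to 40825791, except in EE501F2_093 with 60713423 to 77078776. Of the 1768 models, 121 had 0 counts in every library, 237 had counts too low for testing, and 1410 (79.8%) passed the filter. The passing share was 65.4% below 25 Mb and 70.6% over all placed models. The segment's models lay on both strands, 856 on the plus and 912 on the minus strand, and 89 overlapped another of them. Their median length was 1453 bases, against 1241 for all placed models. They held 7.62% ± 0.210 of a library's counts in EE501F2_089, 6.51% ± 0.295 in EE501F2_516 and 7.93% ± 0.514 in EE501F2_641 (SD, n = 3 plants each). In the susceptible lines the share was 8.55% ± 0.214 in EE501F2_093, 7.44% ± 0.761 in EE501F2_099 and 6.97% ± 0.339 in EE501F2_500. The parents held 9.01% ± 0.0181 in 80-1 and 8.11% ± 0.273 in M6. In each line between 1158 and 1203 of the models averaged at least 1 CPM.

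The most abundant transcripts of the segment per length came from 3 models. The model g4970 (chromosome 2, 34879871 to 34880741, minus strand) averaged 4541 CPM per kb over the 8 lines and ranked 10 among all models. The model g2358 (28000652 to 28002579, minus strand) averaged 4020 CPM per kb at rank 12, and g4973 (34886258 to 34887334, minus strand) averaged 3079 CPM per kb at rank 23. In all 3, EE501F2_516 was the lowest line. In its plants g4973 stood at 973, 311 and 501 CPM, against 5899, 5235 and 5797 CPM in 80-1 and 1474, 2317 and 1854 CPM in M6. At g4970 and g4973 the plants of EE501F2_516 lay below every plant of both parents. At g2358 they read 2875, 1868 and 1960 CPM, against 2398, 2880 and 2710 CPM in M6. There the line was not called different from M6 (edgeR adjusted p = 0.532). The segment held 9 of the 100 most abundant models and 63 of the top 1000. In bulk leaf RNA, fewer cells of a type and less RNA per cell cannot be told apart. Since g4970 overlaps a neighbouring model, its reads could not be assigned with certainty, and the strand setting of the counting is not given in the sources used here.

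Expression of the segment in the resistant parent was compared with that in the susceptible parent. In 80-1, 243 of the 1410 tested models were higher and 245 were lower than in M6 (edgeR quasi-likelihood test, adjusted p under 0.05). Those shares, 17.2% and 17.4%, lay close to the shares over all 21028 tested models, 18.6% higher and 18.7% lower. A difference of at least 2-fold was found in 270 models (19.1%; 22.2% of all tested models) and of at least 4-fold in 122 (8.65%; 11.6% of all). Of those 122, 71 were higher in 80-1 and 51 were lower. The median log2 fold change was 0.02 in the segment and 0.01 over all tested models. Leaving out replicate 1 or replicate 3 of every line gave 153 higher models in either case, and 155 or 142 lower ones.

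Among the models higher in 80-1, g30996 (32840880 to 32842447, plus strand) was read almost only in 80-1. It stood at 17.5, 18.2 and 17.1 CPM in the plants of 80-1 and at 0, 0 and 0.0566 CPM in those of M6, where it had 2 counts in all. The groups did not overlap (edgeR adjusted p = 1.72e-12). The ratio of 80-1 to M6 was 932, with a 95% counting interval of 257 to 7702, and such intervals cover counting error only. Both counts came from 1 plant of M6: without it the fitted log2 fold change was 12.23, against 9.61 with it. M6 then held 0 counts, so the counts set no upper limit to the value of 12.23. In the F2 generation the model was read in every plant. The resistant lines averaged 19.2 CPM in EE501F2_089, 24.4 CPM in EE501F2_516 and 9.94 CPM in EE501F2_641. The susceptible lines averaged 8.51, 10.8 and 10.05 CPM in EE501F2_093, EE501F2_099 and EE501F2_500. The lines EE501F2_089 and EE501F2_516 thus stood at or above the level of 80-1, and the other 4 F2 lines between the parents.

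The other model named for a rise, g2495 (29251230 to 29252927, plus strand), had 140, 128 and 134 CPM in 80-1 and 2.10, 1.08 and 2.58 CPM in M6. Every plant of 80-1 lay above every plant of M6, with a log2 fold change of 6.13 ± 0.87 (SE; edgeR adjusted p = 1.49e-05). In EE501F2_641 its 3 plants read 9.67, 222 and 190 CPM, so that 1 plant lay apart from the other two. Plants of EE501F2_089 and EE501F2_516 lay at 3.11 to 13.2 CPM, above M6 and far under 80-1. The susceptible lines had 8.62, 3.85 and 4.76 CPM in EE501F2_093, 35.8, 54.2 and 103 CPM in EE501F2_099 and 49.4, 22.4 and 16.2 CPM in EE501F2_500. Of these, EE501F2_093 lay as low as EE501F2_089 and EE501F2_516 and was not called different from M6 (edgeR adjusted p = 0.141), and all plants of the other two lay between the parents.

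Among the models lower in 80-1, g5023 (35369088 to 35372091, plus strand) had 0.0387, 0 and 0 CPM in 80-1, a single count, and 26.5, 17.7 and 16.3 CPM in M6. The groups did not overlap (edgeR adjusted p = 3.62e-08), and the ratio of 80-1 to M6 was 0.000685 with a 95% counting interval of 1.73e-05 to 0.00382. Without the plant that held the count, the fitted log2 fold change was -12.45, against -10.19 with it. The remaining plants of 80-1 held 0 counts of g5023, so the counts set no lower limit to the value of -12.45. The levels of g5023 in resistant F2 plants were 0, 0.0713 and 0.167 CPM in EE501F2_089, 0.334, 0.513 and 0.607 CPM in EE501F2_516, and 8.65, 1.25 and 12.7 CPM in EE501F2_641. The susceptible lines averaged 7.48 ± 1.27, 12.5 ± 1.22 and 10.7 ± 1.40 CPM (SD, n = 3 plants each). All plants of EE501F2_089 and EE501F2_516 lay below every other F2 plant, though EE501F2_516 was higher than 80-1 (log2 fold change 4.81, edgeR adjusted p = 0.00253). Of EE501F2_641, 2 of the 3 plants lay within the range of the susceptible lines.

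The model g23983 (32488501 to 32490621, minus strand) had 0.271, 0.127 and 0.0419 CPM in 80-1 and 112, 75.02 and 72.3 CPM in M6, with a log2 fold change of -9.14 ± 0.72 (SE; edgeR adjusted p = 7.55e-09). No plant of 80-1 reached the level of M6. The F2 values of this model are given with the resistance classes.

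**Figure D1:**
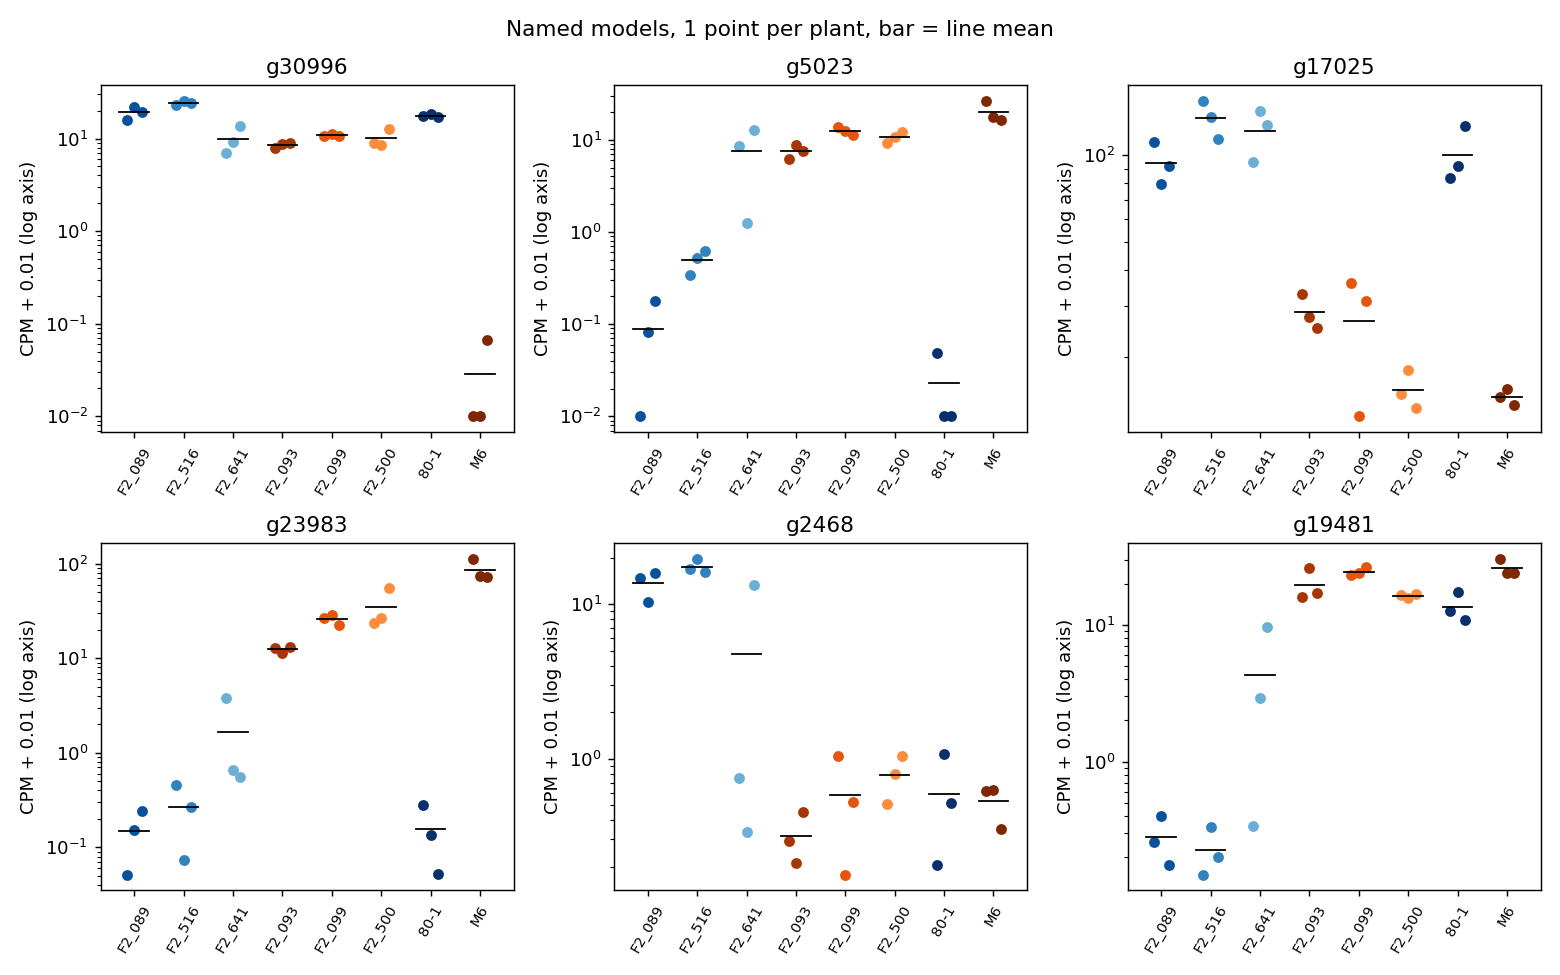
CPM of 6 named models in each of the 24 plants on a log axis, with 0.01 CPM added, by line: resistant F2 lines, susceptible F2 lines, then 80-1 and M6. The model g23983 stays at or under 3.77 CPM in all resistant F2 plants and at or above 11.3 CPM in all susceptible F2 plants, and 1 plant of EE501F2_641 stands apart in g2468 at 13.2 CPM.

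Models read in 1 parent alone were few. A model with 0 counts in M6 and at least 1 CPM in 80-1 was found once among the 1768 (0.0566%), against 0.322% of all placed models. It lies at 31676031 to 31676366, averaged 1.53 CPM in 80-1 and reached at most 0.118 CPM in any F2 line. The reverse, 0 counts in 80-1 and at least 1 CPM in M6, was found in 0 models of the segment and in 0.201% of all placed models. A wider criterion, chosen after the values were seen, asked for a call between the parents, a mean under 1 CPM in 1 parent and at least 5 CPM in the other. Of the 1410 tested models, 9 were at least 5 CPM in 80-1 and under 1 CPM in M6 (0.638%; 0.761% of all tested models), and 5 the other way (0.355%; 0.751% of all). Of the 9 that M6 barely read, 7 reached 5 CPM in EE501F2_089, 7 in EE501F2_516 and 5 in EE501F2_641, and 5, 6 and 2 did so in EE501F2_093, EE501F2_099 and EE501F2_500. Of the 5 that 80-1 barely read, 0, 3 and 1 reached 5 CPM in those resistant lines, and 5, 4 and 3 in those susceptible lines. Counts by F2 line were not made for such models over the whole table, so these few are not read as particular to the segment.

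A pair of neighbours among the 9 was read in 80-1 and was low in every F2 line. The model at 31902351 to 31903109 averaged 5.38 CPM in 80-1, at most 0.577 CPM in any F2 line and 0.262 CPM in M6. The model at 31907121 to 31908092 averaged 9.94 CPM in 80-1, at most 1.37 CPM in an F2 line and 0.625 CPM in M6. At both models all 6 F2 lines lay nearer to M6 than to 80-1. Another pair of neighbours, at 39100565 to 39102166 and 39102224 to 39102964, behaved otherwise. The first of these averaged 49.9, 65.4 and 13.8 CPM in EE501F2_089, EE501F2_516 and EE501F2_641, and 9.28, 17.5 and 14.5 CPM in EE501F2_093, EE501F2_099 and EE501F2_500. Its levels in the parents were 28.8 CPM in 80-1 and 0.735 CPM in M6. Unlike the pair before, it was read in all 6 F2 lines, and EE501F2_089 and EE501F2_516 lay above 80-1. Reads of near-identical copies could not be separated in any of these models.

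The F2 lines were then compared by resistance class, with the line as the replicate. Over line sums of 3 resistant and 3 susceptible lines, 0 of 1418 models of the segment passed (edgeR quasi-likelihood test, adjusted p under 0.05), where 0.0142% of all tested models did. At an unadjusted p under 0.05, 68 models were higher in the resistant lines (4.8%; 3.86% of all) and 86 were lower (6.06%; 3.54% of all). DESeq2 called 57 of 1485 models on the same sums, 19 higher and 38 lower in resistant lines, against 2.33% of all models. Limma-voom on plants, which took lines as a random effect, found 21 of 1385 (1.52%; 0.845% of all), 7 higher and 14 lower. Without EE501F2_641 the edgeR test on line sums called 3 models, and the unadjusted counts were then 110 higher and 154 lower. Without EE501F2_089, 33 were higher and 57 lower, and without EE501F2_099, EE501F2_500 or EE501F2_093 the higher models numbered 37, 41 and 45. Shares over all tested models were not computed with a line left out, so these changes are not read as particular to the segment. Every resistant line mean lay above every susceptible one in 108 models (7.66%; 6.45% of all) and below every susceptible one in 143 (10.1%; 6.31% of all).

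A criterion on plants asked for a call of the same sign in each of the 9 resistant-by-susceptible line pairs (edgeR adjusted p under 0.05 in each). It found 9 models higher in the resistant lines and 19 lower. The 9 make up 0.638% of the tested models of the segment, against 0.656% of all tested models, and the 19 make up 1.35%, against 0.609% of all. The 28 models spanned 25298954 to 41270308, with a median absolute log2 fold change of 1.60 between the classes and a range of 0.67 to 5.80, and 25 differed by at least 2-fold. Without replicate 3 of every line the counts were 1 higher and 5 lower, without replicate 2 they were 3 and 10, and without the third plant of EE501F2_500 alone the lower models numbered 11. Where the 6 pairs without a given line were required in place of 9, the counts could only rise, to 37 higher and 71 lower without EE501F2_641, 17 and 38 without EE501F2_500, and 21 higher without EE501F2_093. Shares over all tested models were not computed for any left-out replicate, plant or line. With a single plant standing for EE501F2_641, plant 1 gave 5 higher models, plant 3 gave 15, and plant 2 gave 31 lower ones.

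Of the 28, 6 were higher in the resistant lines and also higher in 80-1 than in M6, and 9 were lower in both comparisons. These make up 21.4% and 32.1% of the 28, against 22.2% and 15.8% of the 266 models that met the criterion over the whole table. A single model (3.57%; 9.4% of the 266), at 27457886 to 27460621, was called in opposite directions: its log2 fold change was -1.62 ± 0.19 (SE) between the F2 classes and 1.30 ± 0.31 between the parents. It averaged 1.08, 1.26 and 1.62 CPM in EE501F2_089, EE501F2_516 and EE501F2_641, and 5.01, 3.14 and 4.14 CPM in EE501F2_093, EE501F2_099 and EE501F2_500, against 8.31 CPM in 80-1 and 3.38 CPM in M6. The other 12 (42.9%; 52.6% of the 266) were not called between the parents, 3 of them higher and 9 lower in the resistant lines. In all 3 every resistant line stood above both parents, and in all 9 every resistant line stood below both parents. How many of the 140 such models over the whole table did so was not counted, so this is not read as particular to the segment.

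The model g17025 (25298954 to 25304984, plus strand) was higher in the resistant lines and in 80-1 alike. Its plants had 112, 79.6 and 91.8 CPM in EE501F2_089, 155, 136 and 114 CPM in EE501F2_516 and 94.9, 143 and 128 CPM in EE501F2_641. The susceptible plants had 33.0, 27.4 and 25.1 CPM in EE501F2_093, 36.0, 12.4 and 31.2 CPM in EE501F2_099 and 14.9, 18 and 13.2 CPM in EE501F2_500. Every resistant plant lay above every susceptible plant. The resistant lines averaged 117 ± 20.6 CPM and the susceptible ones 23.5 ± 7.08 CPM (SD, n = 3 lines each), a log2 fold change of 2.35 ± 0.16 (SE over plants). Its largest edgeR adjusted p over the 9 pairs was 9.45e-05. On line sums the edgeR adjusted p was 0.152, and DESeq2 gave an adjusted p of 2.38e-08. In the parents it had 83.5, 91.8 and 126 CPM in 80-1 and 14.5, 15.4 and 13.6 CPM in M6, a log2 fold change of 2.79 ± 0.29 (SE). The 3 resistant lines were not called different from 80-1. Against M6, EE501F2_093 and EE501F2_099 were higher by 0.97 and 0.87 on the log2 scale (edgeR adjusted p = 0.0139 and 0.0272), and EE501F2_500 was not called different (0.08, edgeR adjusted p = 0.848).

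The model g2468 (29030138 to 29031125, plus strand), 378 bases long, was high in most resistant plants and low in both parents. It had 14.8, 10.4 and 15.9 CPM in EE501F2_089, 16.8, 19.6 and 16.1 CPM in EE501F2_516, and 0.744, 0.327 and 13.2 CPM in EE501F2_641. All plants of the susceptible lines lay at 0.168 to 1.02 CPM. The parents averaged 0.584 CPM in 80-1 and 0.520 CPM in M6 (edgeR adjusted p = 0.919). The fold change between classes, 4.35 ± 0.52 on the log2 scale (SE over plants; largest edgeR adjusted p over the pairs 0.0246), rests in EE501F2_641 on a single plant. Without that plant its largest adjusted p by edgeR was 0.948, and leaving out plant 1, 2 or 3 of EE501F2_500 gave 0.0826, 0.0635 and 0.0565. Its neighbour at 29025183 to 29029084, 1054 bases away, was also higher in the resistant lines, at 15.9, 12.3 and 8.44 CPM against 3.17, 3.37 and 2.27 CPM. That neighbour averaged 5.05 CPM in 80-1 and 0.637 CPM in M6.

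The 2 models named for a fall were g23983 and g19481. In g23983 the resistant plants had 0.0416, 0.143 and 0.233 CPM in EE501F2_089, 0.445, 0.0642 and 0.255 CPM in EE501F2_516 and 3.77, 0.654 and 0.545 CPM in EE501F2_641. The susceptible plants had 12.8, 11.3 and 13.2 CPM in EE501F2_093, 26.9, 28.8 and 22.6 CPM in EE501F2_099 and 23.8, 26.4 and 55.0 CPM in EE501F2_500. The classes did not overlap, and every susceptible F2 plant lay below the 3 plants of M6. The log2 fold change between classes was -5.80 ± 0.36 (SE over plants), and on line sums -5.21 ± 1.03 with an edgeR adjusted p of 0.271.

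In g19481 (36898863 to 36911724, plus strand) the plants of EE501F2_089 had 0.25, 0.392 and 0.167 CPM and those of EE501F2_516 had 0.139, 0.321 and 0.192 CPM. The plants of EE501F2_641 had 0.326, 2.89 and 9.72 CPM. The susceptible lines averaged 19.7, 24.5 and 16.4 CPM, and the parents 13.6 CPM in 80-1 and 26.1 CPM in M6 (edgeR adjusted p = 0.154). Both parents thus read a model that 2 of the 3 resistant lines read at under 0.4 CPM in every plant. The log2 fold change between classes was -4.97 ± 0.38 (SE over plants), and its edgeR adjusted p on line sums was 0.549. Without replicate 2 of every line, the largest edgeR adjusted p of the 9 pairs was 0.191.

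Members of the 28 lay near each other in places. Within 150 kb of a neighbour, a distance chosen after the values were seen, stood 12 of them in 5 runs. The segment holds 102 models per Mb, and runs over the rest of the genome were not computed. The closeness is therefore given as a description only. The longest run held 4 models, all lower in the resistant lines, over 124.6 kb from 32018710 to 32143313, where 12 models were tested and 1 of the 4 was called between the parents. Within 50 kb, this run split into 2 runs of 2 models, and 6 runs were found in all. In that run the model at 32018710 to 32022617 averaged 5.51, 4.69 and 10.8 CPM in EE501F2_089, EE501F2_516 and EE501F2_641, against 17.6, 17.8 and 17.6 CPM in EE501F2_093, EE501F2_099 and EE501F2_500. Its levels in the parents were 26.7 CPM in 80-1 and 20.4 CPM in M6. Farther along, the model at 32138125 to 32143313 averaged 0.856, 0.829 and 1.19 CPM in the same resistant lines, against 2.82, 4.27 and 4.11 CPM in the same susceptible lines. It averaged 6.07 CPM in 80-1 and 3.92 CPM in M6. At both models the resistant lines lay under both parents, as they did at the model from 32025806 to 32031371. The model of the run called between the parents, at 32130793 to 32132375, went otherwise. Its resistant lines averaged 11.0, 11.2 and 10.4 CPM, near the 11.0 CPM of 80-1. The susceptible lines averaged 16.8, 20.0 and 15.1 CPM there, and M6 27.6 CPM.

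**Figure D2:**
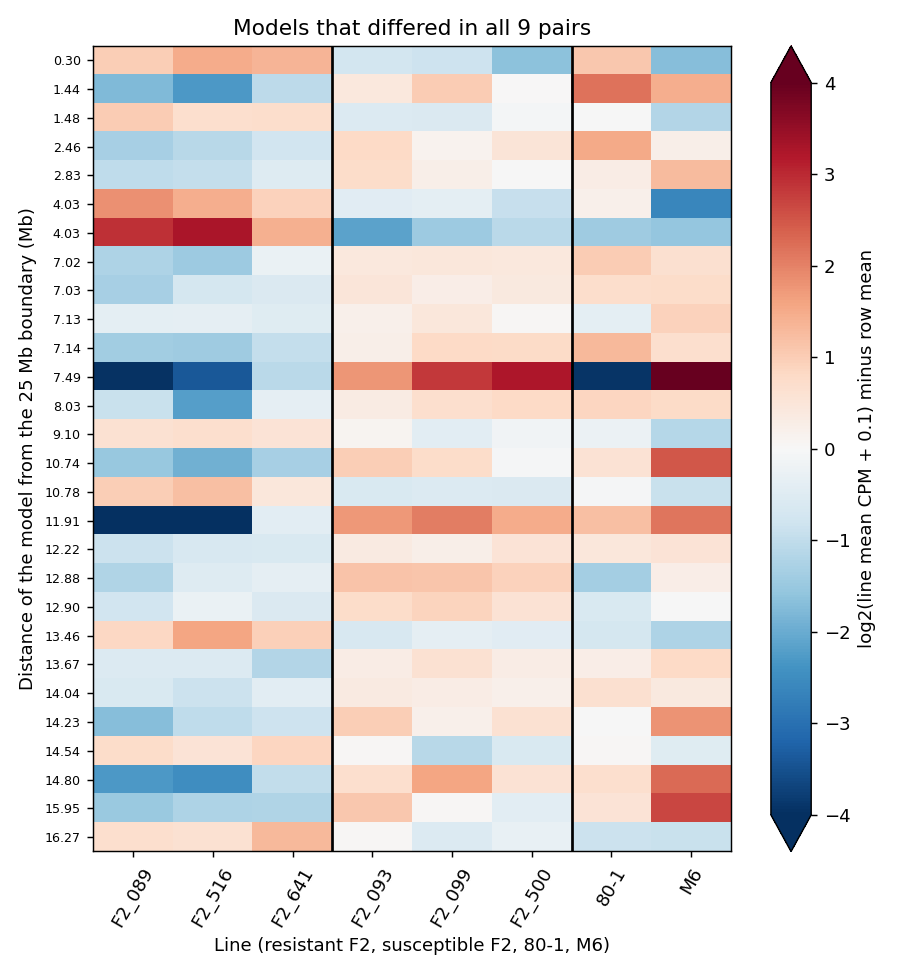
Levels of the 28 models called in all 9 pairs (rows, by distance from the 25 Mb boundary in Mb) in each of the 8 lines (columns), as log2 of the line mean CPM with 0.1 added, minus the mean of the row; colours saturate beyond 4 in either direction. In the resistant lines 9 of the 28 models are higher and 19 lower, and 12 were not called between the parents.

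Differences among the 6 F2 lines were tested without the classes. They were found in 1065 models (75.5%), close to the 75.6% of all tested models (edgeR F test, adjusted p under 0.05). The 2 with the smallest p among models called between the parents were g23983 and g3022. The model g3022 (40589266 to 40594267, plus strand) had 22.1, 27.2 and 27.5 CPM in EE501F2_089 and 19, 33.5 and 23.3 CPM in EE501F2_516. It averaged 5.44 ± 0.650 CPM in EE501F2_641, and 2.63 ± 0.0299, 4.60 ± 1.18 and 4.09 ± 0.0893 CPM in EE501F2_093, EE501F2_099 and EE501F2_500 (SD, n = 3 plants each). The F test among the 6 F2 lines gave this model an edgeR adjusted p of 8.69e-09. The parents averaged 2.12 CPM in 80-1 and 0.259 CPM in M6, so the mean of every F2 line exceeded both. EE501F2_089 and EE501F2_516 were called higher than 80-1 (edgeR adjusted p = 4.02e-08 and 1.90e-08) and than M6 (edgeR adjusted p = 1.23e-10 and 1.38e-10). So were EE501F2_641, EE501F2_099 and EE501F2_500, against 80-1 (edgeR adjusted p = 0.00159, 0.00513 and 0.0146) and M6 (edgeR adjusted p = 2.73e-08, 9.48e-08 and 8.62e-08). EE501F2_093 was called higher than M6 (edgeR adjusted p = 1.15e-06) but not than 80-1 (edgeR adjusted p = 0.497).

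Among models whose parents had an adjusted p over 0.5, the 2 with the smallest p were g16524 and g17725. The model g16524 (33033612 to 33035899, minus strand) was low in the resistant lines, at 20.3, 7.96 and 29.1 CPM in EE501F2_089, EE501F2_516 and EE501F2_641. It averaged 47.2, 60.1 and 64.5 CPM in EE501F2_093, EE501F2_099 and EE501F2_500, and 68.2 CPM in 80-1 and 64.1 CPM in M6 (edgeR F test, adjusted p = 1.47e-08). The model g17725 (37914118 to 37918821, minus strand) went the other way, at 65.2, 136 and 26.7 CPM in the resistant lines and 8.06, 14.5 and 19.4 CPM in the susceptible lines, in the same order. Its F test among the 6 F2 lines gave an edgeR adjusted p of 3.74e-08. The parents stood at 6.82 CPM in 80-1 and 6.63 CPM in M6 and were not called different (edgeR adjusted p = 0.941). In both models EE501F2_516 was the line farthest from the parents. Without replicate 3 of every line, 704 models passed this test.

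The levels in every F2 line were next tested against both parents. These 12 comparisons share the parental libraries, so each is given on its own, with edgeR calls at an adjusted p under 0.05. In EE501F2_089, 555 models (39.4%) differed from 80-1, against 41.1% of all tested models, and 625 (44.3%) differed from M6, against 39.7% of all. In EE501F2_516, 751 (53.3%) differed from 80-1, against 54.9% of all, and 734 (52.1%) differed from M6, against 48.7% of all. In EE501F2_641 the counts were 426 (30.2%; 32.8% of all) from 80-1 and 609 (43.2%; 40.6% of all) from M6. The 3 resistant lines thus differed from 80-1 at a share below that of all models and from M6 at a share above it.

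Among the susceptible lines, EE501F2_093 differed from 80-1 at 231 models (16.4%; 21.7% of all) and from M6 at 267 (18.9%; 21.3% of all). EE501F2_099 differed from 80-1 at 458 (32.5%; 37.1% of all) and from M6 at 280 (19.9%; 20.9% of all). EE501F2_500 differed from 80-1 at 497 (35.2%; 38.7% of all) and from M6 at 439 (31.1%; 33.3% of all). All 6 of these shares lay below those of all models. EE501F2_516 had the most differences from either parent and EE501F2_093 the fewest. These orders depend on the fit: on the 6 libraries of a comparison alone, the counts against 80-1 were 168 for EE501F2_641 and 457 for EE501F2_093, and those against M6 were 298 for EE501F2_641 and 422 for EE501F2_093. Leaving out the same replicate of every line moved 10 of the 12 counts by over 1.5 times in at least 1 case, to as few as 94 for EE501F2_093 against 80-1.

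**Figure D3:**
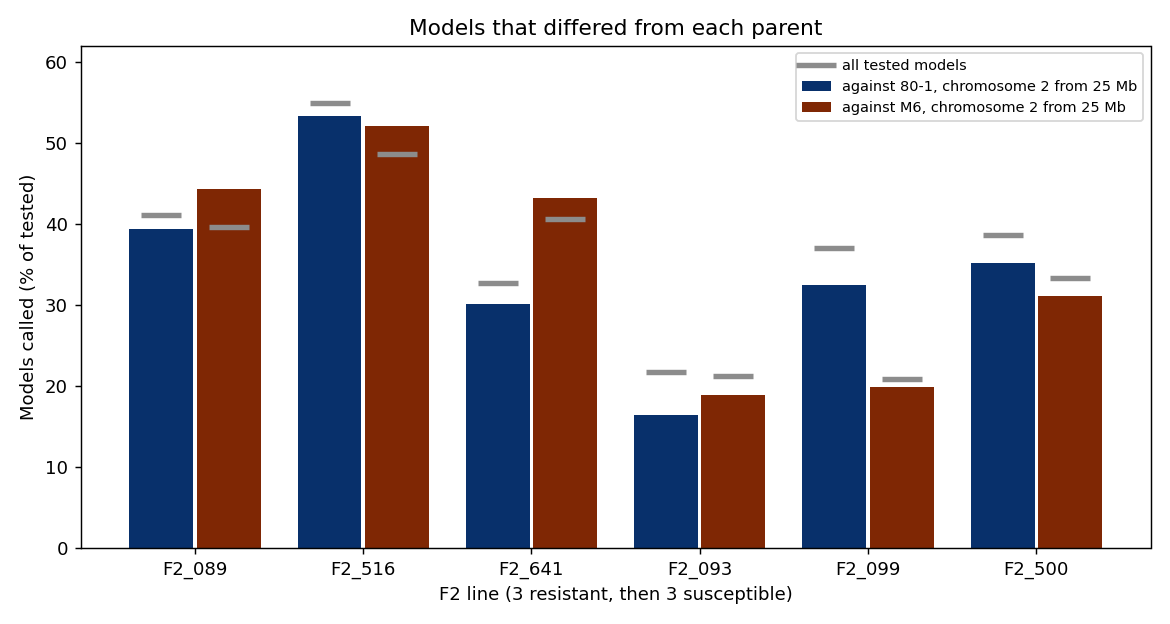
Percent of the 1410 tested models of the segment that differed from each parent, by F2 line, as bars, with grey marks for all 21028 tested models. The resistant lines' bars against M6 stand above their grey marks, and the bars against 80-1 stand below theirs in all 6 lines.

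A parental state was computed for the 122 models that differed at least 4-fold between the parents, on a scale of log2 CPM where M6 is 0 and 80-1 is 1. It is a level of RNA, not a genotype. The median over the models was 0.855 in EE501F2_089, 0.752 in EE501F2_516 and 0.701 in EE501F2_641, against 0.430 in EE501F2_093, 0.433 in EE501F2_099 and 0.458 in EE501F2_500. The resistant lines averaged 0.769 ± 0.0786 and the susceptible lines 0.441 ± 0.0151 (SD, n = 3 lines each). The lowest resistant line lay 0.243 above the highest susceptible line. With 3 lines against 3 an exact permutation test (two-sided) cannot go below p = 0.1, so none is given. Over all 2449 models of the genome chosen in the same way, the classes stood at 0.522 ± 0.0469 and 0.399 ± 0.0736, and over the 78 such models of chromosome 2 below 25 Mb at 0.784 ± 0.147 and 0.285 ± 0.0428. The lowest resistant line lay 0.290 above the highest susceptible line below 25 Mb, and 0.0126 above it over the genome.

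By plant, the median state ran from 0.786 to 0.937 in EE501F2_089, 0.671 to 0.796 in EE501F2_516 and 0.676 to 0.784 in EE501F2_641. The susceptible plants lay at 0.397 to 0.489 in EE501F2_093, 0.438 to 0.496 in EE501F2_099 and 0.404 to 0.534 in EE501F2_500. No resistant plant overlapped a susceptible one. Within a line the models were mixed. In EE501F2_089, 56.6% of the 122 were above 0.75, near or beyond 80-1, and 16.4% under 0.25, near or beyond M6. These classes have no outer limit: 35.2% of the 122 lay above 1, past 80-1, and 7.38% below 0, past M6. In EE501F2_093, 27.9% were above 0.75, 29.5% under 0.25 and 42.6% between. There 10.7% lay above 1 and 9.84% below 0. The share between was 27.0% to 37.7% in the resistant lines and 40.2% to 42.6% in the susceptible lines.

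**Figure D4:**
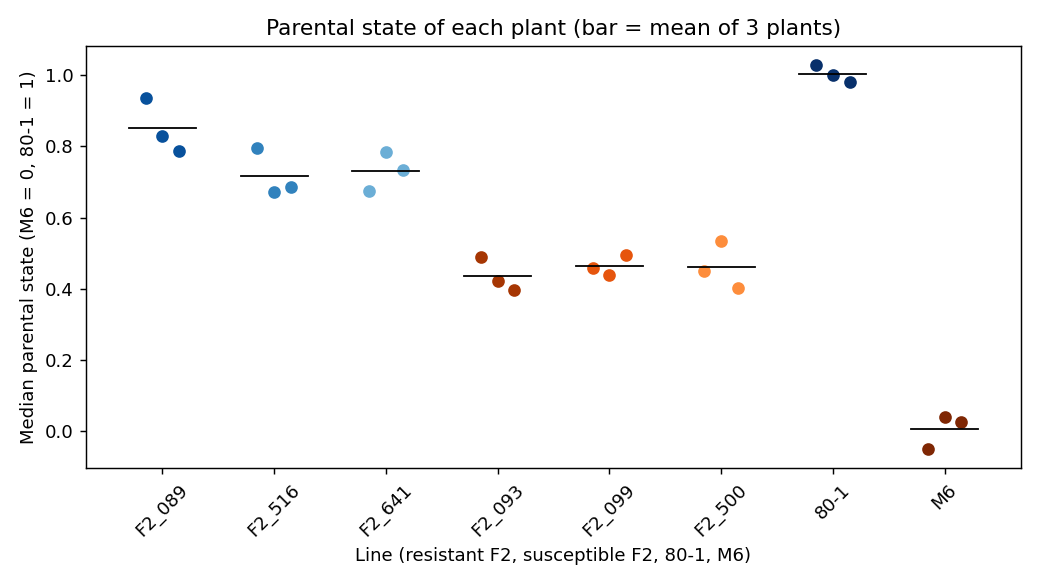
Median parental state over 122 models in each of the 24 plants, with M6 at 0 and 80-1 at 1, by line, for resistant F2 lines, susceptible F2 lines, 80-1 and M6. The resistant F2 plants lie at 0.671 to 0.937 and the susceptible F2 plants at 0.397 to 0.534.

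Taken model by model, every resistant line had a higher state than every susceptible line in 28 of the 122 (23.0%), against 8.45% of all 2449 models chosen in the same way. The reverse held in 4 (3.28%; 3.76% of all). Neighbouring models are inherited together, so the 28 are not independent of each other. All 6 F2 lines were under 0.5 in 12 models (9.84%; 15.03% of all) and over 0.5 in 21 (17.2%; 11.7% of all). Of the 12 models nearer M6 in every F2 line, 5 lay between 31 and 32 Mb, where 11 models had a state.

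Along the segment, 12 of 18 windows of 1 Mb held at least 5 such models. Every resistant line was above every susceptible line in 4 of them, and in 0 of them were all resistant lines below. The widest gap was at 27 to 28 Mb, where the resistant lines stood at 0.925, 0.709 and 0.918 (EE501F2_089, EE501F2_516, EE501F2_641) and the susceptible lines at 0.246, 0.387 and 0.388 (EE501F2_093, EE501F2_099, EE501F2_500). At 39 to 40 Mb the resistant lines stood at 0.984, 0.925 and 0.773 and the susceptible lines at 0.437, 0.507 and 0.593. The other windows were 32 to 33 Mb and 36 to 37 Mb, with gaps of 0.09 and 0.04. By plant the classes overlapped in the windows beginning at 32, 36 and 39 Mb, and not at 27 Mb. Plants 1 and 2 of EE501F2_641 (0.778 and 0.817) lay under plant 1 of EE501F2_093 (0.855) at 32 to 33 Mb. Plant 3 of EE501F2_516 (0.458) lay under every susceptible plant at 36 to 37 Mb. At 39 to 40 Mb plant 2 of EE501F2_641 (0.596) lay under all plants of EE501F2_500 (0.603 to 0.674). Windows elsewhere in the genome were not computed. At 31 to 32 Mb the resistant lines lay at 0.484, 0.121 and 0.288 and the susceptible lines at 0.263, 0.273 and 0.247, so that all 6 lay nearer M6. At 25 to 26 Mb all 6 lay above 0.5, from 0.562 in EE501F2_099 to 1.22 in EE501F2_516. The same held at 36 to 37 Mb, from 0.558 in EE501F2_099 to 0.868 in EE501F2_641.

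**Figure D5:**
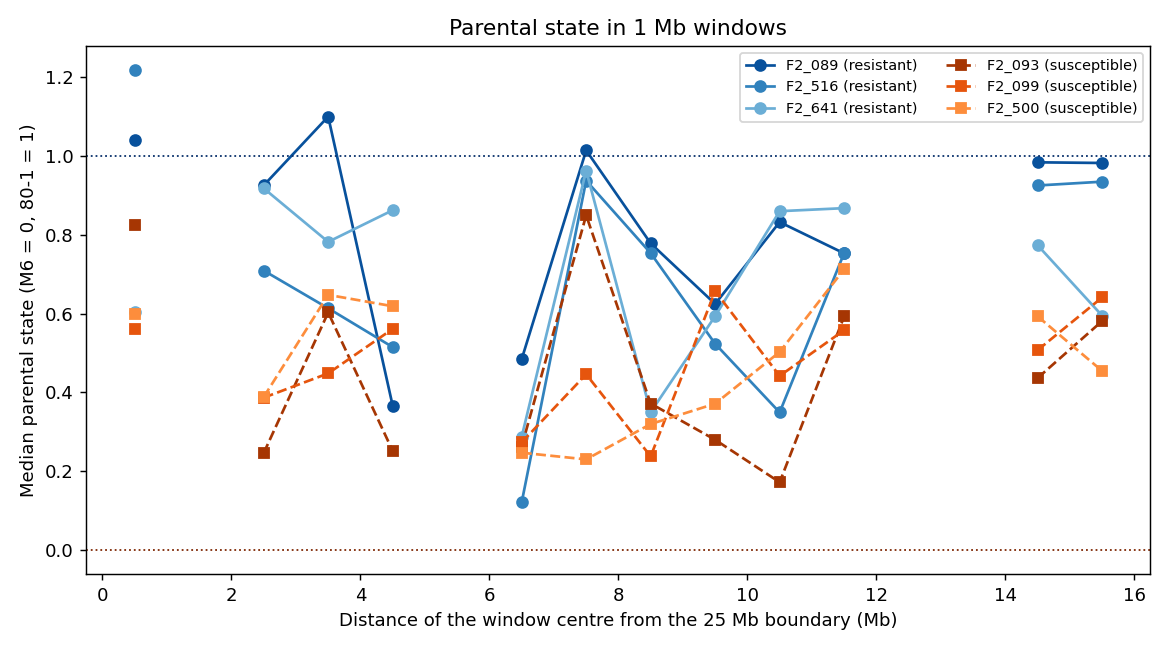
Median parental state by line in windows of 1 Mb with at least 5 models, against the distance of the window's centre from the 25 Mb boundary; lines break where a window has no value. The resistant lines lie above the susceptible lines in 4 of the 12 windows, with the widest gap, 0.32, in the window from 27 to 28 Mb.

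The 3 plants of EE501F2_641 differed from each other more than plants of the other lines, within the segment as elsewhere. Among models of at least 1 CPM in a line, 32.9% spanned more than 2-fold over the plants of EE501F2_641, against 33.4% of all other tested models. In the other lines the share was 7.92% in EE501F2_089, 13.0% in EE501F2_516, 5.90% in EE501F2_093, 14.9% in EE501F2_099 and 9.96% in EE501F2_500, with 3.47% in 80-1 and 7.42% in M6. Among models of at least 5 CPM the shares were lower, 25.3% in EE501F2_641, 3.30% in EE501F2_089, 8.53% in EE501F2_516, 3.28% in EE501F2_093, 11.7% in EE501F2_099 and 6.87% in EE501F2_500, with 1.31% in 80-1 and 4.35% in M6. The state of its plants spanned over 0.4 in 4 of the 12 windows, beginning at 29, 33, 34 and 35 Mb, that of EE501F2_516 in 2, and that of the other 6 lines in 0. At 29 to 30 Mb the plants of EE501F2_641 read 0.39, 1.05 and 1.08, and at 35 to 36 Mb 0.54, 1.07 and 1.05. Whether the 3 plants share a genotype was not tested.

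The models with the widest range in EE501F2_641 were g2394 and g2808. The model g2394 (28304006 to 28306077, minus strand) had 95.1, 3.44 and 433 CPM in its 3 plants. The other resistant plants had 1.60 to 2.00 CPM in EE501F2_089 and 0.545 to 2.11 CPM in EE501F2_516, while the susceptible plants had 27.4 to 190 CPM. Its levels were 172, 111 and 142 CPM in 80-1 and 316, 441 and 367 CPM in M6. A plant of EE501F2_641 was thus near the other resistant lines, and another was near M6. The model g2808 (39075089 to 39077540, minus strand) had 0.465, 42.6 and 37.2 CPM in EE501F2_641, 0.374 to 1.43 CPM in EE501F2_089 and 0.770 to 1.81 CPM in EE501F2_516. The susceptible plants had 26.4 to 53.7 CPM, with 0.966, 1.23 and 1.26 CPM in 80-1 and 49.0, 33.5 and 46.9 CPM in M6. The first plant of EE501F2_641 lay with 80-1 and the other resistant lines, and the other two lay within the range of M6 and the susceptible lines.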

How the data were processed

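Leaf RNA of 24 plants, 3 from each of 8 lines, was analysed from a table of raw counts per gene model deposited by the authors. Per the submitters' processing notes, the tools were featureCounts 1.5.3, Subread, STAR 2.6.0, Trimmomatic 0.35 and DESeq2, whose roles and order the notes do not state. For the genome build, the strand setting and reads with several matches, the sources used here give nothing, and the plants' RNA integrity number was at least 8 per the labels. Coordinates are those of the deposited table, which also gives the length of each model, a value other than a count. The segment's models, the lists and the tests were chosen with earlier results of these data known.

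The analysis used edgeR 4.0.16 in R 4.3.3: filterByExpr, TMM scaling and a quasi-likelihood fit with 1 mean per line (24 libraries, 16 residual degrees of freedom). Benjamini-Hochberg adjustment ran over all 21028 tested models, and a model was called at an adjusted p under 0.05. Classes were also tested on counts summed by line (21184 models, 4 residual degrees of freedom). Log2 fold changes are given with approximate standard errors, the estimate divided by the square root of F. DESeq2 1.42.0 and limma 3.58.1 were alternatives, with RLE size factors, no filter, left-out libraries and lines, and a replicate block. Floors of 3 counts and 95% intervals are exact and cover counting error only. No libraries of a line agreed within counting noise (chi-square per degree of freedom 11.1 to 222 over 24 pairs), so none was treated as deposited in duplicate.

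Per comparison, the 2 called models that rose most and the 2 that fell most were named, provided the higher group averaged 5 CPM or more. For the F2 lines they are the 2 with the smallest p among models called between the parents and the 2 among models with a parental adjusted p over 0.5. The 2 with the widest range in EE501F2_641 and the 3 most abundant per kb are named as well. Other models are given by position and were singled out after their values were seen.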

Additional observations from a re-analysis of the deposited data

Results flagged for a closer look

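The difference of the parents (80-1 minus M6) and that of the F2 classes (resistant minus susceptible) were tested against each other for the 4 models named in the 9 pairs of lines. In 3 of these the contrasts differed, by the interaction of the edgeR quasi-likelihood fit on the spread between plants. The 4 models were named for their large class fold changes in the same plants, and the adjusted p-values do not allow for that choice. In g2468 the parental log2 fold change (0.15) was 4.19 below that of the F2 classes (4.35), a difference of -4.19 (edgeR adjusted p = 0.00566). In g23983 the log2 fold changes were -9.14 and -5.80, a difference of -3.34 (edgeR adjusted p = 0.00539). In g19481 they were -0.94 and -4.97, a difference of 4.03 (edgeR adjusted p = 9.02e-05). In all of these the tests speak only of these lines, and the part of the plants of EE501F2_641 in them was not tested. The same test was passed by 30.6% of the tested models of the segment and by 34.7% of all tested models.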

How the results depend on the processing

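Over all values and alternatives, 373 kept their direction and call (a count: within 1.5 times; a share or state: within its error), 49 were weaker, 18 stronger and 12 moved. The cause was not tested where a value changed, and fits with libraries left out also rest on fewer libraries. With libraries or lines left out, only models of the segment were counted, without the share over all tested models. With the 6 pairs left without a line required in place of 9 (9 higher, 19 lower), counts could only rise. The higher models then numbered 21, 17 and 37 without line EE501F2_093, EE501F2_500 and EE501F2_641, and the lower ones 38 and 71 without EE501F2_500 and EE501F2_641. With 1 plant of EE501F2_641, plants 1 and 3 gave 5 and 15 higher models, and plant 2 gave 31 lower ones. These single-plant fits of the 9 pairs were chosen after seeing the data. On line sums the unadjusted higher models (68) numbered 33, 45, 37, 41 and 110 without EE501F2_089, EE501F2_093, EE501F2_099, EE501F2_500 and EE501F2_641. The lower ones (86) numbered 57 and 154 without EE501F2_089 and EE501F2_641, and 130 by limma-voom. Calls on line sums (0) became 57 by DESeq2, 21 by limma-voom, 3 without EE501F2_641 and 1 with each of its plants alone. On the 6 libraries compared alone, EE501F2_093 differed from 80-1 at 457 and from M6 at 422 models, and EE501F2_641 at 168 and 298. The susceptible mean state was 0.482 with models of at least 2-fold. At a line mean of at least 5 CPM, the share of models spanning over 2-fold was 3.30% in EE501F2_089, 8.53% in EE501F2_516, 25.3% in EE501F2_641, 3.28% in EE501F2_093, 11.7% in EE501F2_099, 6.87% in EE501F2_500, 1.31% in 80-1 and 4.35% in M6.

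Leaving out replicates gave 153 to 217 higher and 142 to 212 lower models between the parents, 1 to 13 higher and 5 to 24 lower in the 9 pairs, and 704 to 880 among the F2 lines. Against 80-1 and then M6, the models called numbered 335 to 429 and 398 to 520 in EE501F2_089, 540 to 619 and 512 to 617 in EE501F2_516, and 204 to 333 and 401 to 458 in EE501F2_641. They numbered 94 to 139 and 116 to 197 in EE501F2_093, 255 to 316 and 128 to 171 in EE501F2_099, and 269 to 382 and 240 to 270 in EE501F2_500. The resistant lines' mean state ran from 0.702 to 0.787 and the susceptible lines' mean from 0.416 to 0.498. Among named models, g2468 lost its call in 6 of 21 such cases and g19481 in 1.

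Replicate numbers did not pair the plants (correlation of same-numbered deviations -0.38 to 0.30, over 0.1 in 17 of 84 pairs, and 6 of 24 libraries closest to their own number). A replicate block gave 242 higher and 237 lower models between the parents, 7 and 20 in the 9 pairs and 1052 among the F2 lines, and g2468 had a largest edgeR adjusted p of 0.0550 there. Depth limits models near the floor of 3 counts over a line, 0.0157 to 0.0471 CPM.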
